A study of Mus musculus with 6 samples.

Results

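Matrix metalloproteinases (Mmp genes), ADAM and ADAMTS proteinases and their tissue inhibitors (Timp genes) were examined in mouse colon tumours. Members were all gene symbols of the deposited count tables that are built as Mmp, Adam or Adamts plus a number, with an optional trailing letter for Mmp and Adam, or as Timp plus 1 digit. This gave 80 of 26214 genes: 23 Mmp, 34 Adam, 19 Adamts and 4 Timp genes. RNA was sequenced after ribosomal depletion from tumours of Trim21 -/- mice (3 samples, the knockout) and of Trim21 +/+ mice (3 samples, the wild type). All of these mice had received azoxymethane (AOM), a carcinogen, and dextran sulfate sodium (DSS), an irritant of the colon lining, so untreated colon was not part of the comparison. Strain, age, sex, doses and how the Trim21 allele was made are not known here from the labels. Trim21 encodes a ubiquitin ligase that is also a cytosolic antibody receptor. The labels name biological replicates but do not tie each sample to a separate mouse, and a p-value here reflects only the spread among these 6 samples.

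Mmp proteins are zinc-dependent endopeptidases that are made as inactive precursors and cut collagens, other matrix proteins and many secreted factors. ADAM proteins sit in the cell membrane and release growth factors, cytokines and receptors from it, a process called shedding, while ADAMTS proteins are secreted relatives that act on proteoglycans and procollagens. Timp proteins bind the active site and block it. In intestinal tumours Mmp7 (matrilysin) is typically made by the epithelium, whereas most of the other matrix-degrading members come from fibroblasts and other stromal cells or from myeloid cells.

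Of the Mmp genes, 10 lie side by side on chromosome 9, within 427 kb of mm10 (7272514 to 7699585), among them the 3 members with the highest mean level per length over the 6 libraries. Of these 10 cluster genes, 8 held the letters TGANTCA, the core recognised by AP-1 transcription factors, in a RefSeq promoter window (GRCm38.p6, 250 bases before to 50 after a start, both strands), and the same 8 held TATAAA on the sense strand. None of the 8 other Mmp genes, 10 Adamts genes and 4 Timp genes with a window held TGANTCA, and 5 of 18 Adam genes did. Among all 27025 genes with a window, 8.97% held TGANTCA and 9.77% held TATAAA. The 120 bases before the start are shown for Mmp7 and for Mmp10, Mmp3 and Mmp13. These neighbours hold the heptamer too, and its part in the group values was not tested. TGANTCA matches stand in capitals, and Mmp8, which lacks one, is shown as a contrast.
Mmp7 (chr9:7691970-7692089, + strand): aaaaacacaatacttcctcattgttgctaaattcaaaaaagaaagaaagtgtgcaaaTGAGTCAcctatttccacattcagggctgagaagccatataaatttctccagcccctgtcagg
Mmp10 (chr9:7502222-7502341, + strand): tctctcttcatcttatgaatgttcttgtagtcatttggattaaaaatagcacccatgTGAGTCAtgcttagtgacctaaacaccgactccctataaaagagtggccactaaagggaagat
Mmp3 (chr9:7445702-7445821, + strand): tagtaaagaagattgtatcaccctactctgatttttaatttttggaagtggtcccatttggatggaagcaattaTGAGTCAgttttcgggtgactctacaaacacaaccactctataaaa
Mmp13 (chr9:7272394-7272513, + strand): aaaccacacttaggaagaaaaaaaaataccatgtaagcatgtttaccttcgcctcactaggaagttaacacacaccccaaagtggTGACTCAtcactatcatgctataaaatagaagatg
Mmp8 (chr9:7558309-7558428, + strand): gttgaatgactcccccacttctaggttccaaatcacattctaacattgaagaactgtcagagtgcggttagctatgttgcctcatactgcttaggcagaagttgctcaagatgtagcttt
The heptamer began 63 bases before the start in Mmp7, 63 in Mmp10, 46 in Mmp3 and 35 in Mmp13. Mmp7 was also the only one of the 50 members with a window that held CTTTGAT (both strands), a core of TCF/LEF sites found in 4.29% of all genes with a window. A single match in 50 is not above that share. On the scale of bases before the start it stood at −4, so after the start and outside the bases shown. A match of letters is a description and not a site that was shown to be bound.

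Total counts lay between 17937821 and 19987295 in the knockout libraries and between 27085599 and 29742757 in the wild-type libraries, so the wild type was sequenced more deeply. Trim21 itself held 244, 345 and 248 reads in the knockout libraries and 887, 601 and 527 in the wild-type libraries, which is lower but not absent; which exons those reads cover is not visible in gene totals. Scaled to library size, Trim21 was at 12.1, 18.9 and 12.8 CPM in the knockout and 29.8, 20.3 and 19.5 CPM in the wild type. Knockout replicate 2 thus lay close below wild-type replicates 2 and 3. The log2 fold change of Trim21 was −0.67 (standard error 0.24) and did not pass (edgeR adjusted p = 0.418). Each of 11 colon epithelium markers was present in every library. Their summed level was 8589 to 9002 CPM in the knockout and 7410.0 to 8603 CPM in the wild type. Epithelium was thus present, but these markers are not all particular to the colon. Paneth cell markers, given below, were present as well, so the site rests on the labels. CPM denotes the count scaled to a common library size (counts-per-million). In these bulk samples, fewer cells of a type and less RNA per cell cannot be told apart.

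Of the 80 members, 54 passed the filter on low counts and were tested: 18 Mmp, 15 Adam, 17 Adamts and 4 Timp genes. The other 26 held at most 21 reads in any library, and 11 of them held none, all of these Adam genes of the male reproductive tract. With edgeR's quasi-likelihood test, 0 of the 54 members passed an adjusted p of 0.05, as did 0 of all 16281 tested genes (0%). At an unadjusted p under 0.05 there were 10 members, or 18.5%, against 10.7% of all tested genes. Of these 10 members, 7 had higher knockout values (6.63% of all tested genes did) and 3 had lower ones (4.12%). Without knockout replicate 3 that split turned to 4 higher and 7 lower. The groups did not overlap for 9 members, or 16.7%, against 17.9% of all tested genes, so that share is near the background. Knockout values were the higher ones for 6 of them (9.43% of all tested genes) and the lower ones for 3 (8.47%). DESeq2 called 2 members, Mmp7 lower and Adam23 higher, where it called 2.09% of all genes with an adjusted p (1.51% higher, 0.582% lower). Limma-voom called 0 members and 0% of all genes. Directions below are therefore those of measured values, not of calls.

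The median log2 fold change (knockout minus wild type) was 0.11 over the 54 tested members and −0.01 over all tested genes. By family it was −0.04 for Mmp, 0.01 for Adam, 0.53 for Adamts and 0.31 for Timp genes. Positive values were seen for 8 of 18 Mmp, 8 of 15 Adam, 13 of 17 Adamts and 3 of 4 Timp genes. The Adamts median was 0.35 without knockout replicate 3, and the Mmp median ranged from −0.29 without wild-type replicate 3 to 0.12 without wild-type replicate 1.

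**Figure D1:**
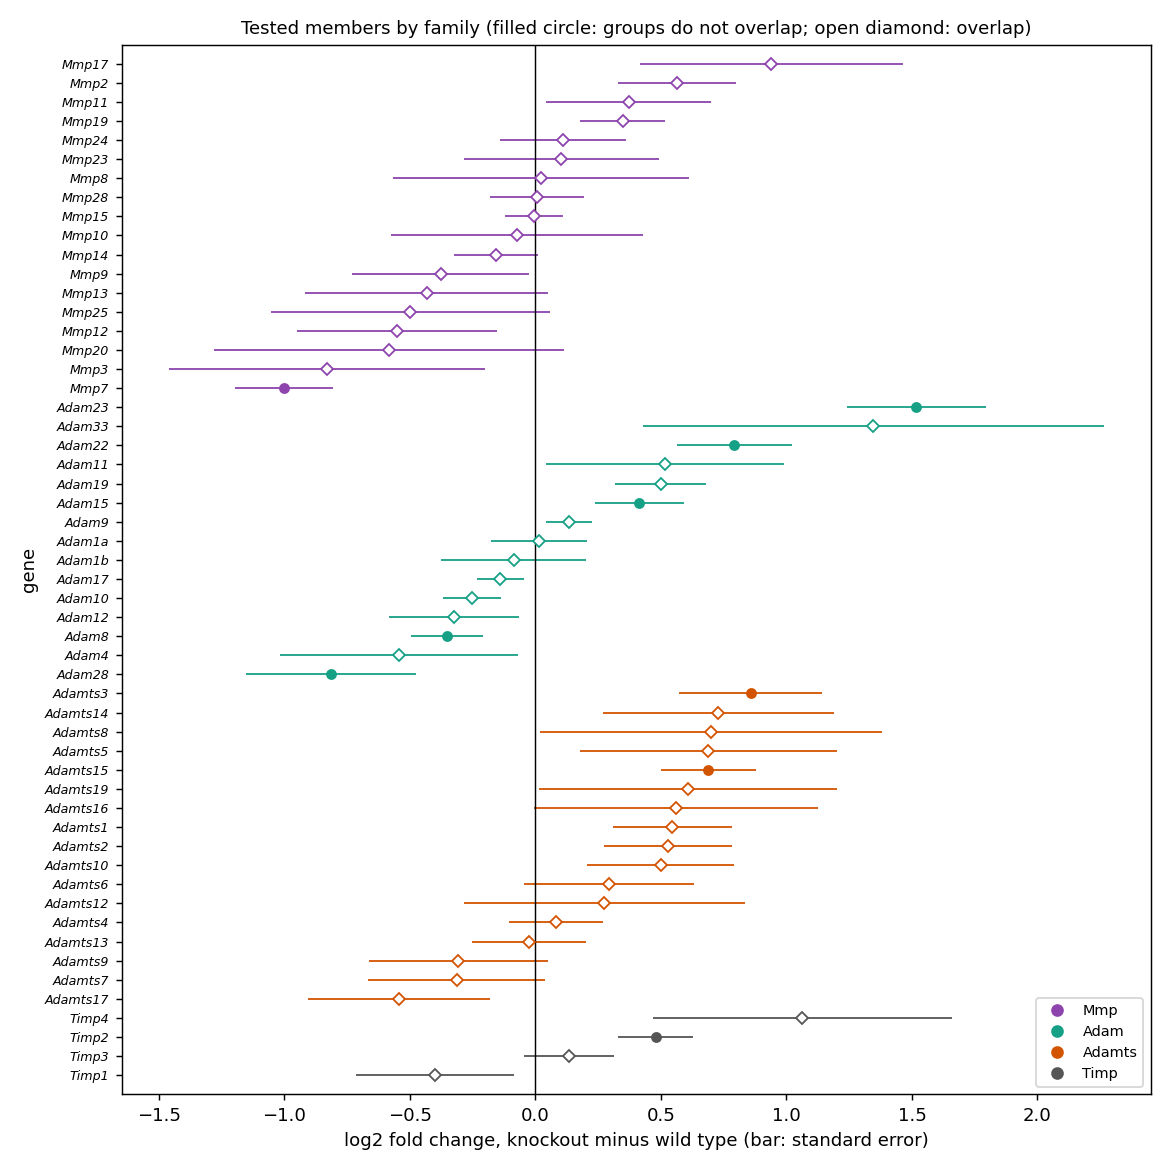
Log2 fold change (x axis, knockout minus wild type) with its standard error for each of the 54 tested members (y axis), ordered by value within family; filled circles mark members whose 3 knockout and 3 wild-type values do not overlap. Mmp7 at −1.001 is the lowest member and Adam23 at 1.52 the highest, and 13 of the 17 Adamts genes lie above 0.

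Mmp7, the matrilysin, which cuts a broad range of matrix and cell surface proteins and activates alpha-defensins in Paneth cells of the small intestine, had the lowest fold change of the tested members. Its level was 296, 213 and 199 CPM in knockout replicates 1 to 3 and 577, 442 and 399 CPM in wild-type replicates 1 to 3. Every knockout value thus lay below every wild-type value. The means were 236 ± 52.5 and 473 ± 93.0 CPM (SD, n = 3 each), which is −1.001 on the log2 scale (standard error 0.19). Mmp7 did not pass (unadjusted p = 0.00123, edgeR adjusted p = 0.322). DESeq2 gave the same change an adjusted p of 0.000261, and over all alternatives the adjusted p ran from 0.000261 to 0.723 and the log2 fold change from −1.19 to −0.83. The coding gene spans bases 7692090 to 7699585 of chromosome 9 (mm10, plus strand).

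Per length, Mmp7 had the highest group mean of all members in both groups, at 221 RPKM (CPM divided by the kilobases of merged exons) in the knockout and 442 RPKM in the wild type. In knockout replicate 3, however, Mmp7 stood at 186.5 RPKM, below Mmp10 with 283.7 and Mmp13 with 194.4 RPKM. Over knockout replicates 2 and 3 alone, the mean was 192.9 RPKM for Mmp7 and 218.2 RPKM for Mmp10. It was followed over all 6 libraries by Mmp10 with 169.7, Mmp13 with 133, Adam10 with 84.6, Mmp14 with 55.8 and Timp3 with 44.9 RPKM. The antisense transcript AV064505 shares 123 exonic bases with Mmp7 and measured 46.3, 32.9 and 30.2 CPM in the knockout and 94.2, 72.5 and 63.7 CPM in the wild type. That is between 15.16% and 16.42% of the Mmp7 CPM in every library. The shared bases are 11.5% of the Mmp7 exons. Whether the authors counted by strand is not known here, so reads within the shared bases cannot be told apart.

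Markers of epithelial states were read beside Mmp7, and their lists differed. All 10 genes of the Wnt-active tumour epithelium list had negative fold changes (median −0.46), and their summed level was 881 to 1404 CPM in the knockout and 1444 to 2107 CPM in the wild type, without overlap. Singly, 3 of these 10 genes did not overlap, all lower in the knockout, against 8.47% of all tested genes. Mmp7 is known as a target of Wnt signalling. All 7 Paneth cell markers were likewise negative (median −1.35), with none at 0 reads in any library. Their summed level overlapped, at 2177, 1166 and 368 CPM in the knockout and 1041, 2548 and 2989 CPM in the wild type. Within the knockout this sum fell from replicate 1 to 3, as Mmp7 did. Within the wild type it rose from replicate 1 to 3, while Mmp7 fell. Of the 11 colon epithelium markers, 7 were positive (median 0.15) and the summed level overlapped. The part of these markers in the Mmp7 difference was not tested.

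**Figure D2:**
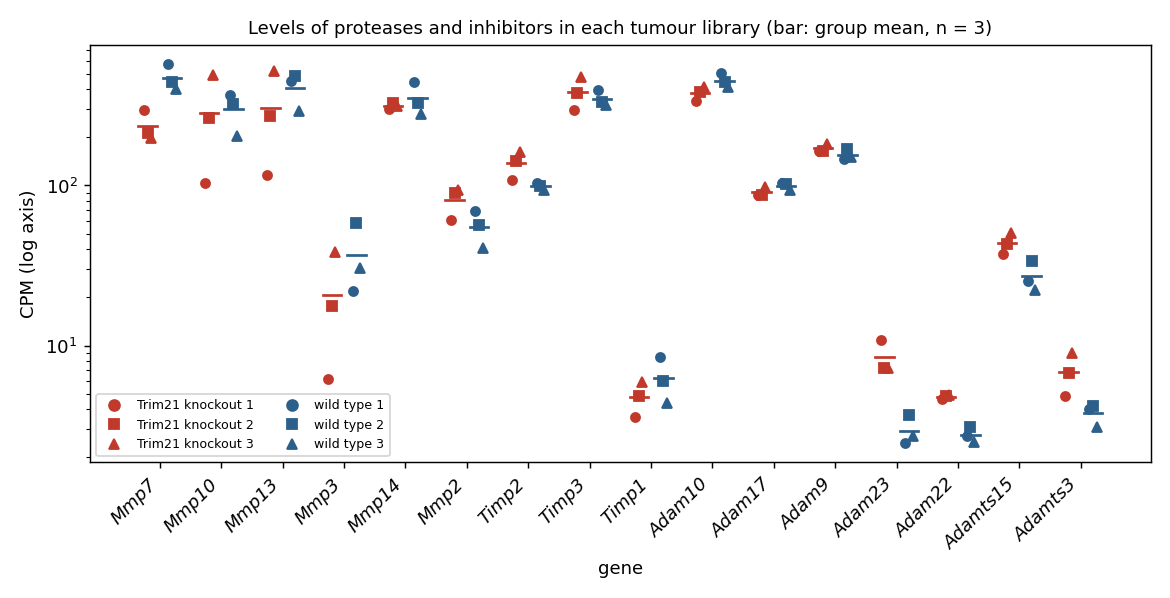
Level in CPM (y axis, log scale) of 16 members (x axis) in each library, red for Trim21 knockout and blue for wild type, with one symbol per replicate number and bars at the group means. Mmp7, Adam22, Adam23, Adamts3, Adamts15 and Timp2 show no overlap between the groups, while Mmp3, Mmp10 and Mmp13 spread most within the knockout.

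Unlike Mmp7, its cluster neighbours Mmp10, Mmp13 and Mmp3 overlapped between the groups. Mmp10 (stromelysin 2), which cuts proteoglycans and activates other Mmp precursors, measured 103, 263 and 489 CPM in knockout replicates 1 to 3 and 369.7, 324 and 205 CPM in the wild type. Mmp13, the main interstitial collagenase of mice, measured 117, 272 and 519.7 CPM in the knockout and 449, 486 and 291 CPM in the wild type. Mmp3 (stromelysin 1) measured 6.20, 17.6 and 38.4 CPM in the knockout and 21.8, 58.5 and 30.4 CPM in the wild type. Knockout replicate 1 was the lowest of the 6 libraries for all 3 genes, and knockout replicate 3 was the highest library for Mmp10 and Mmp13.

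The highest and lowest knockout values differed 4.73-fold for Mmp10, 4.45-fold for Mmp13 and 6.20-fold for Mmp3, against 1.81, 1.67 and 2.68-fold within the wild type. The log2 fold changes were −0.07 (standard error 0.50), −0.43 (0.48) and −0.83 (0.63), with edgeR adjusted p of 0.965, 0.759 and 0.647. Knockout replicate 1, lowest for these 3 genes, had the highest Mmp7 of its group. Mmp13 ran from −1.07 without knockout replicate 3 to −0.039 without knockout replicate 1, and Mmp3 from −1.63 without knockout replicate 3 to −0.33 without wild-type replicate 2. Mmp10 turned to 0.33 without knockout replicate 1 and to 0.11 without wild-type replicate 1. Of the other tested cluster genes, Mmp12 had −0.55, Mmp20 −0.58 at 1.34 CPM over all libraries, and Mmp8 0.02, all with overlap. Mmp20 rested on wild-type replicate 1 with 3.39 CPM, against 0.643 to 1.39 CPM in the other libraries. Mmp12 fell from replicate 1 to 3 within each group, as Mmp7 did.

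**Figure D3:**
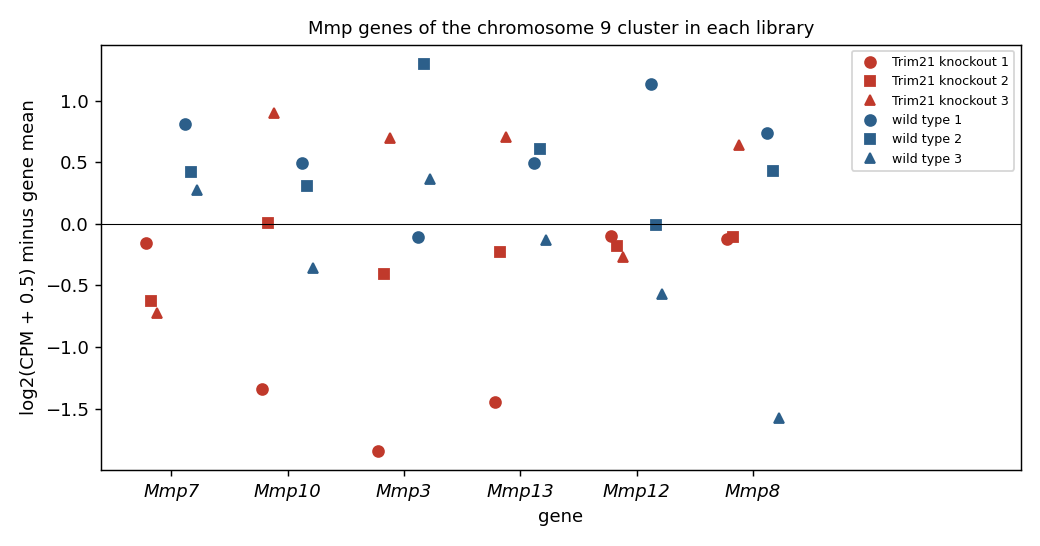
Log2(CPM + 0.5) minus the gene's mean over the 6 libraries (y axis) for Mmp genes of the chromosome 9 cluster (x axis), red for Trim21 knockout and blue for wild type, one symbol per replicate number. Mmp7 separates the groups, whereas Mmp10, Mmp3 and Mmp13 have knockout replicate 1 as their lowest library and overlap between the groups.

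Other secreted Mmp genes overlapped between the groups as well. The neutrophil collagenase gene Mmp8 measured 6.25, 6.31 and 10.9 CPM in the knockout and 11.7, 9.38 and 1.96 CPM in the wild type. Mmp12, the macrophage elastase, measured 34.2, 32.2 and 30.4 CPM in the knockout and 80.9, 36.4 and 24.5 CPM in the wild type. The gelatinase gene Mmp9, which myeloid cells release, measured 37.1, 50.9 and 47.9 against 95.7, 44.3 and 36.5 CPM. Wild-type replicate 1 was the highest library for these 3 genes. Without that library the log2 fold changes of Mmp12 and Mmp9 turned from −0.55 and −0.38 to 0.08 and 0.17.

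The other gelatinase gene, Mmp2, which is made by fibroblasts, had 60.9, 90.1 and 94.2 CPM in the knockout and 69.0, 56.3 and 40.6 CPM in the wild type. Knockout minus wild type was 0.56 on the log2 scale (standard error 0.23, edgeR adjusted p = 0.459), and the groups overlapped by 1 knockout library. Mmp19 and Mmp11 had 0.35 and 0.37, again with overlap. Tmem198b, on the opposite strand, shares 22.3% of the exonic bases of Mmp19 and was at a like level (17.3 CPM over all libraries, against 19.5 CPM). Mmp28, an epithelial member, was at 26.7 ± 2.96 and 26.6 ± 5.81 CPM (SD, n = 3 each), a log2 fold change of 0.01.

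All 5 tested membrane-type members overlapped between the groups. Mmp14, which cuts collagen at the cell surface and activates the Mmp2 precursor together with Timp2, measured 302, 325 and 316 CPM in the knockout and 446, 327 and 278 CPM in the wild type. The log2 fold change of Mmp14 was −0.16 (standard error 0.17). Wild-type replicate 1 was its highest library, and the other wild-type values lay just above and below the knockout range. Mmp15 measured 142 ± 16.6 and 142 ± 11.7 CPM (SD, n = 3 each), and Mmp17, anchored by a lipid tail, had 0.94 at 2.76 and 1.44 CPM (standard error 0.52), the highest fold change of the tested Mmp genes. Mmp25, a leukocyte member, had −0.50 at 1.23 and 1.73 CPM (standard error 0.56), and Mmp24 had 0.11. Of the 3 genes of the Mmp2 activation complex, Mmp2 and Timp2 thus had positive values and Mmp14 a negative one, and none passed. The sign of Mmp14 leaned on wild-type replicate 1.

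Timp2, the inhibitor that also serves in that complex, measured 108, 142 and 162 CPM in the knockout and 103, 98.8 and 93.8 CPM in the wild type. Each knockout value lay above each wild-type value, by a small margin for knockout replicate 1. On the log2 scale the difference was 0.48 (standard error 0.15, edgeR adjusted p = 0.379). Timp3, which is bound to the matrix and inhibits Adam17 as well, measured 295, 377 and 476 against 396, 333 and 317 CPM, a log2 fold change of 0.13 (standard error 0.18) that turned to −0.06 without knockout replicate 3. Syn3, on the opposite strand, shares 21.3% of the exonic bases of Timp3 and was at 8.41 CPM over all libraries.

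Timp1, the inhibitor usually induced by inflammation, was at a low level of 3.57, 4.83 and 5.90 CPM in the knockout and 8.45, 6.03 and 4.37 CPM in the wild type. Its log2 fold change was −0.40 (standard error 0.32, edgeR adjusted p = 0.66), and it ran from −0.60 without wild-type replicate 3 to −0.13 without wild-type replicate 1. Per length it reached 6.22 RPKM over all libraries, below Timp2 with 30.3 RPKM. Timp4 was at 3.17, 1.92 and 2.90 against 0.604, 0.711 and 2.52 CPM, with overlap.

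Mmp7 was then set against the stromal members within each library, where differences in library size largely cancel. The 17 stromal members were Mmp2, Mmp3, Mmp11, Mmp13, Mmp14, Mmp19, Mmp23, Adam12, Adam33, Adamts1, Adamts2, Adamts4, Adamts5, Adamts12 and Timp1 to Timp3. The log2 CPM of Mmp7 minus their mean was 3.85, 2.84 and 2.55 in the knockout and 4.52, 4.04 and 4.23 in the wild type. Every knockout library lay below every wild-type library. The group means were 3.08 ± 0.68 and 4.26 ± 0.24 (SD, n = 3 each), a difference of −1.18. Leaving out single libraries moved that difference between −1.56, with knockout replicate 1 left out, and −0.91, with knockout replicate 3 left out.

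The stromal mean itself was 4.36, 4.89 and 5.08 in the knockout and 4.66, 4.75 and 4.41 log2 CPM in the wild type, so the groups overlapped. The difference within a library therefore rests mainly on Mmp7, whose own log2 CPM differed by −1.01 between the groups, and to a lesser extent on the stromal mean, which differed by 0.17. Against single stromal members, the group difference was negative for 16 of 17, and the groups did not overlap for 10 of them. These 10 included Mmp2 (−1.58), Timp2 (−1.46), Adamts1 (−1.53) and Mmp14 (−0.88). Mmp3 was the exception with 0.06, and Mmp13 had −0.36 with overlap. All 17 differences use the same Mmp7 values, so these counts are not separate results. The share of all genes that would give such a difference was not computed, so the counts are not particular to stromal members. Set against the 5 myeloid members Mmp8, Mmp9, Mmp12, Mmp25 and Adam8, Mmp7 differed by −0.73, with overlap.

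**Figure D4:**
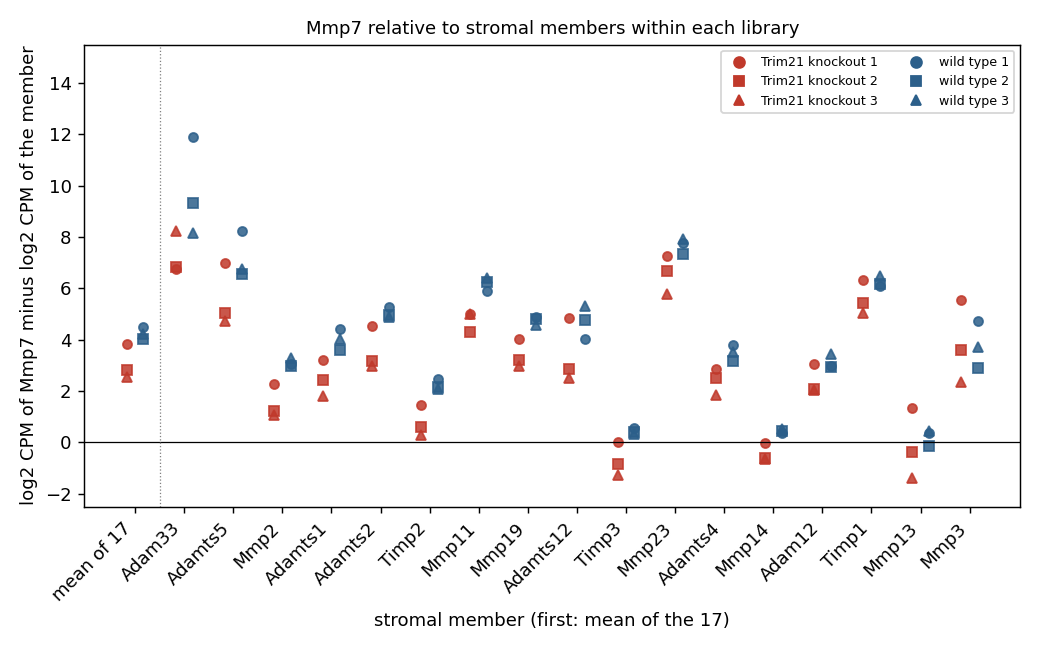
Log2 CPM of Mmp7 minus that of each stromal member within a library (y axis), first for the mean of the 17 stromal members and then for each one (x axis), red for Trim21 knockout and blue for wild type. For the mean, the knockout libraries lie between 2.55 and 3.85 and the wild-type libraries between 4.04 and 4.52.

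Among stromal members, 12 of 17 had a positive log2 fold change (median 0.27), and without knockout replicate 3 the median was −0.06. All 10 fibroblast markers were positive (median 0.39), with summed levels of 1750, 2483 and 2473 CPM in the knockout and 1837, 1781 and 1201 CPM in the wild type. All 10 smooth muscle markers were positive too (median 0.97), at 890.5 to 1429 CPM in the knockout and 333 to 819 CPM in the wild type, without overlap. No marker of either list was at 0 reads in any library. The part of these cell types in the stromal values was not tested.

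Most Adamts genes had positive values. Adamts15, an aggrecanase that also cuts versican, measured 37.2, 43.0 and 50.6 CPM in the knockout and 25.4, 33.7 and 22.1 CPM in the wild type. The groups did not overlap, and Adamts15 differed by 0.69 on the log2 scale (standard error 0.19, edgeR adjusted p = 0.345). Adamts3, which removes the N-terminal propeptide of procollagen and activates the lymphatic growth factor Vegfc, measured 4.86, 6.70 and 8.95 against 3.99, 4.198 and 3.11 CPM. Its groups did not overlap either, with a log2 fold change of 0.86 (standard error 0.28, edgeR adjusted p = 0.396).

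The other procollagen N-propeptidase genes, Adamts2 and Adamts14, had 0.53 and 0.73, with overlap. Adamts2 measured 12.7, 23.3 and 25.3 CPM in the knockout against 14.96, 14.1 and 13.5 CPM in the wild type, so knockout replicate 1 lay below the wild type and the other 2 knockout libraries above it. Of the 6 tested proteoglycanase genes, 5 were positive (median 0.62), among them Adamts1 with 0.54 and Adamts5 with 0.69. Adamts4 measured 44.2 ± 9.38 and 41.7 ± 7.18 CPM (SD, n = 3 each), a log2 fold change of 0.08 that turned to −0.10 without knockout replicate 3 and to −0.04 without wild-type replicate 3. Adamts9 was the negative one of the 6 with −0.31, and its wild-type values ran from 16.98 to 41.6 CPM.

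Among the rest, Adamts10, an ADAMTS of microfibrils, had 0.50 and Adamts17 −0.54, where wild-type replicate 1 stood at 36.0 CPM against 11.3 to 19.5 CPM in the other 5 libraries. Without that library Adamts17 had −0.05. Adamts13, which cuts von Willebrand factor, was the most abundant Adamts gene per length with 31.3 RPKM. It measured 194, 147 and 117 CPM in the knockout and 197, 149 and 121 CPM in the wild type. The groups overlapped almost fully, with a log2 fold change of −0.03 (standard error 0.23) that turned positive without knockout replicate 3 (0.13) or wild-type replicate 1 (0.18).

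**Figure D5:**
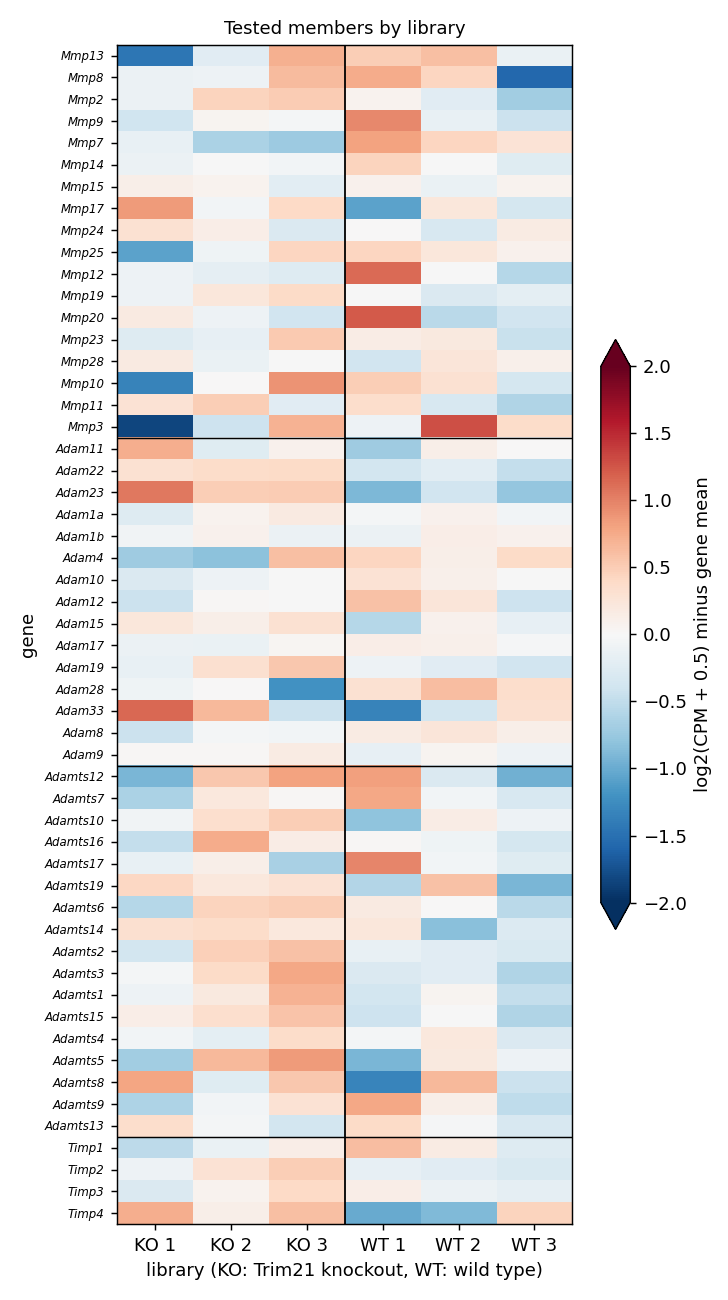
Log2(CPM + 0.5) minus the gene's mean for the 54 tested members (rows, by family) in the 6 libraries (columns), blue below and red above the mean. Knockout replicate 3 was the highest library for 22 of the 54 members and wild-type replicate 3 for 0, while wild-type replicate 3 was the lowest for 16 and knockout replicate 1 for 15.

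Libraries within a group differed in many members. Knockout replicate 3 was the highest library for 22 of the 54 tested members, among them 8 Adamts genes, and wild-type replicate 1 for 15. Wild-type replicate 3 was never the highest and was the lowest for 16. Knockout replicate 1 was the lowest for 15, among them 5 Adamts genes.

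All 3 Adam genes without a working catalytic site that are best known from neurons had positive values. Adam23, an adhesion partner of integrins and Lgi proteins, measured 10.9, 7.19 and 7.29 CPM in the knockout and 2.45, 3.69 and 2.71 CPM in the wild type. Every knockout library lay above every wild-type library, by 2.86-fold in the fit. Adam23 differed by 1.52 on the log2 scale (standard error 0.28) and did not pass (unadjusted p = 0.000823, edgeR adjusted p = 0.322). DESeq2 called it with an adjusted p of 0.000372, and the adjusted p ran from 0.000372 to 0.723 over all alternatives.

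Adam22, another receptor of Lgi proteins, measured 4.61, 4.83 and 4.91 CPM in the knockout and 2.72, 3.08 and 2.48 CPM in the wild type, without overlap. Its log2 fold change was 0.79 (standard error 0.23, edgeR adjusted p = 0.352). The third neural gene, Adam11, had 0.52 with overlap. A list of 12 enteric neuron and glia markers, added after these values were seen, had positive values for 9 of its 10 tested genes (median 0.74), with summed levels of 30.8, 19.1 and 25.8 CPM in the knockout and 11.8, 18.9 and 21.4 CPM in the wild type. Prph, Chrna3, Sox10 and Gfra3 were at 0 reads in at least 1 library. All 10 smooth muscle markers were positive too, with the values given above. The part of these cell types in the Adam22 and Adam23 values was not tested.

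The main shedding enzymes differed little. Adam10, which sheds Notch receptors, E-cadherin and epidermal growth factor, measured 339, 386 and 412 CPM in the knockout and 503, 442 and 410.3 CPM in the wild type. The groups overlapped by a narrow margin, and the log2 fold change was −0.25 (standard error 0.12, edgeR adjusted p = 0.485). Adam17, which releases tumour necrosis factor and most ligands of the epidermal growth factor receptor, measured 90.5 ± 6.20 and 99.6 ± 5.38 CPM (SD, n = 3 each), a log2 fold change of −0.14 (standard error 0.09). Adam9, another membrane sheddase, had 0.13 (standard error 0.09). Adam33, a stromal member, had 1.35 with a large standard error of 0.92, at 2.68, 1.76 and 0.569 CPM in the knockout and 0.0671, 0.609 and 1.30 CPM in the wild type, with overlap.

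The remaining sheddases among the named Adam genes went both ways. Adam28 measured 7.89, 8.40 and 3.36 CPM in the knockout and 10.5, 13.2 and 10.9 CPM in the wild type, and Adam8, a myeloid member, 18.0, 23.7 and 23.4 against 27.3, 29.0 and 26.6 CPM. Neither overlapped, with log2 fold changes of −0.81 (standard error 0.34) and −0.35 (0.14) and edgeR adjusted p of 0.459 and 0.454. Adam15 measured 34.0, 31.3 and 35.7 against 19.3, 30.6 and 25.9 CPM and did not overlap, at 0.41 (0.18). Adam19 measured 51.5, 71.9 and 82.9 against 53.0, 49.1 and 43.8 CPM and overlapped, at 0.50 (0.18). The edgeR adjusted p was 0.47 for Adam15 and 0.418 for Adam19. An antisense transcript shares 20.6% of the exonic bases of Adam15.

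Beside Adam8 and the myeloid Mmp genes, 9 of 10 macrophage markers were positive (median 0.31, summed level 352 to 486 CPM in the knockout and 317 to 333 CPM in the wild type, without overlap). Neutrophil markers were positive for 3 of 9 tested genes (median −0.07), at 131 to 291 and 114 to 279.6 CPM, with Mpo, Elane and Camp at 0 reads in at least 1 library. Their part in the myeloid members' values was not tested.

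Of 52 other genes of extracellular proteolysis and shedding, listed with the members, 46 were tested and 0 passed edgeR's test, while 5 higher and 2 lower genes had an unadjusted p under 0.05. These 7 are 15.2% of the list, against 10.7% of all tested genes. Limma-voom called 0 of them, and DESeq2 called 1, Mep1a, against 2.09% of all genes. The median was 0.07, with 26 positive and 20 negative values. Mep1a, the meprin alpha subunit of the colonocyte brush border, measured 51.6, 42.8 and 59.1 CPM in the knockout and 7.85, 21.7 and 27.4 CPM in the wild type, without overlap. The difference was 1.43 on the log2 scale (standard error 0.41, edgeR adjusted p = 0.349). The adjusted p ran from 0.014 with DESeq2 to 0.723 over all alternatives.

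Of 11 activators and partners of the members, 5 had positive and 6 negative values, and 3 did not overlap between the groups, all of them lower in the knockout (8.47% of all tested genes were lower without overlap). Furin, the convertase that removes the propeptide of membrane-type Mmp, ADAM and ADAMTS precursors, measured 98.7, 99.99 and 84.96 CPM in the knockout and 119, 116 and 129 CPM in the wild type, without overlap. Its log2 fold change was −0.36 (standard error 0.10, edgeR adjusted p = 0.345). Tspan5, a tetraspanin that brings Adam10 to the cell surface, measured 46.0, 46.1 and 40.4 against 62.3, 52.4 and 58.0 CPM, also without overlap (log2 fold change −0.38, standard error 0.11, edgeR adjusted p = 0.356). Tspan14, another Adam10 tetraspanin, was the third, at −0.24, and Tspan15 and Tspan33 of the same group had 0.23 and 0.39. Rhbdf2 and Frmd8, which carry Adam17 to the surface and hold it there, had −0.23 and −0.20, with overlap. Rhbdf1, a relative of Rhbdf2 in the same list, had 0.17, also with overlap.

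All 6 tested ADAMTS-like genes, whose proteins lack the protease part, were positive (median 0.65), against 47.9% of all tested genes. Adamtsl3 measured 2.63, 2.47 and 4.19 CPM in the knockout and 0, 0.880 and 0.482 CPM in the wild type, and Adamtsl5 measured 3.62, 4.28 and 3.67 against 2.01, 1.86 and 3.00 CPM. Neither overlapped between the groups, at log2 fold changes of 2.76 (standard error 0.95) and 0.75 (0.29). Adamtsl2 did not overlap either, at 1.11, but was below 1 CPM in every library. Among all tested genes, 9.43% were higher in the knockout without overlap. The edgeR adjusted p of the 3 genes was 0.403, 0.437 and 0.461.

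Of 13 tested substrates of shedding, 2 did not overlap between the groups, L1cam and Sdc4, both higher in the knockout. Among all tested genes 17.9% did not overlap, and the list median was −0.06. L1cam, an adhesion protein of neurons and invasive tumour cells, measured 81.7, 67.0 and 87.2 CPM in the knockout. Its wild-type values were 38.0, 62.1 and 56.3 CPM (log2 fold change 0.59, standard error 0.20, edgeR adjusted p = 0.396). Sdc4 had 0.20. The 6 listed ligands of the epidermal growth factor receptor lay between −1.10 for Egf, whose wild-type values ran from 1.01 to 21.1 CPM, and 0.25 for Areg, all with overlap. In the plasminogen system, which activates Mmp precursors, the protease gene Plat measured 94.5, 163 and 137 CPM in the knockout and 624, 146 and 159.6 CPM in the wild type. The difference of −1.24 on the log2 scale (standard error 0.57) was −0.22 without wild-type replicate 1. Plau, the urokinase gene, had 0.06 with overlap.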

How the data were processed

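For each of the 6 tumour samples the authors deposited a table of unnormalized counts by gene symbol. Per the labels' protocols, ribosomal RNA was removed from total RNA before library preparation. Per the submitters' processing notes, mm10, TopHat2, edgeR and limma were used, with no roles given. The counter, its strand setting, its handling of multi-mapping reads and the gene models are not stated in the labels. All else was computed here from those counts. The quasi-likelihood test of edgeR 4.0.16 (R 4.3.3) was fitted to all genes and all 6 libraries, without covariates. It used TMM scaling, filterByExpr and a two-sided Benjamini-Hochberg adjusted p of 0.05 over 16281 genes. The standard error is the log2 fold change divided by the square root of F. Log2 CPM used a prior count of 2. Merged exon lengths and positions came from GENCODE M21 (GRCm38, the assembly mm10 denotes), which held 79 of the 80 members, and promoters from RefSeq GRCm38.p6, matched by symbol for 50 members. Alternatives were DESeq2 1.42.0, limma-voom (limma 3.58.1), RLE and upper-quartile scaling, no filter, a filter of 1 CPM in 3 samples, a replicate block, a prior count of 0.5 and leaving out each library. The scripts were tested on simulated counts. Members, roles and lists were chosen with earlier results of these data known. Named genes were Mmp7, the Timp genes, in each protease family the 8 tested members with the smallest p and the 3 highest per length, and 8 genes of the wider list; further members were named to complete a role or list, after their values were seen.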

Additional observations from a re-analysis of the deposited data

How the results depend on the processing

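DESeq2 called 334 genes in all, 241 higher and 93 lower, with 2 members and 1 gene of the wider proteolysis list among them. Limma-voom, both other scalings, both other filters and the replicate block called 0 genes. Leaving out single libraries gave 0 to 1 genes (the 1 without wild-type replicate 3), 0 members and 7 to 12 members at an unadjusted p under 0.05 (12.1% to 20.7% of the members tested, against 6.59% to 11.6% of all genes). With the replicate number as a block, 6 members (11.1%) had an unadjusted p under 0.05, against 7.94% of all genes. The deviations of same-numbered libraries correlated at −0.147, −0.175 and −0.073, which showed no pairing by number but cannot exclude it. The difference of Mmp7 against the stromal mean ranged from −1.56 to −0.91. Of 42 named genes, 36 kept their direction under every alternative that gave them a value. The exceptions turned when 1 library was left out, with leave-one-out ranges of −0.055 to 0.30 for Timp3, −0.86 to 0.085 for Mmp12, −0.63 to 0.17 for Mmp9, −0.71 to 0.33 for Mmp10, −0.23 to 0.18 for Adamts13 and −0.10 to 0.21 for Adamts4. The cause was not tested. Members near 1 CPM rest on few reads, so differences there may not be detectable at this depth.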

Other observations

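Members below the filter on low counts were mostly near silent, and the following were chosen after their values were seen. Adam7, a gene of the epididymis, held 11 reads in knockout replicate 3 and 0 in the other 5 libraries. The interstitial collagenase genes Mmp1a and Mmp1b held at most 2 and 5 reads in a library, and Mmp1b shares 157 exonic bases with Mmp12. Mmp16, a membrane-type member, ranged from 0 to 21 reads within these libraries, and the largest count was in knockout replicate 1.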
